A study of Caenorhabditis elegans with 2 samples.

Results

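The ceh genes (C. elegans homeobox) of Caenorhabditis elegans were examined for chromatin binding of MEL-28, a nuclear pore and kinetochore protein of the worm. The set comprised the 63 nuclear protein-coding genes whose symbol starts with ceh- in the Ensembl annotation, out of 19973 nuclear protein-coding genes, and every one of the 63 was counted whether or not a peak lay near it. Binding had been mapped by ChIP-seq, the sequencing of DNA recovered with a protein, in 2 biological replicates of 1 group. The animals were whole young adults of mixed sex from strain OP646, genotype unc-119(tm4063) III; wgIs646, collected 64 h after synchronisation as starved L1 larvae. The transgene encodes MEL-28 with a C-terminal GFP and FLAG tag, and chromatin sheared by sonication was immunoprecipitated with an antibody against GFP. No untagged strain and no second condition were compared, so every value below describes 1 transgenic line. Whole animals mix all tissues, and the peak lists hold no measure of the tag or of the tissue against which the labels could be checked.

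Homeobox genes encode transcription factors that bind DNA through the homeodomain and fix cell identities in the embryo and in the nervous system. In the worm most of them act in small numbers of neurons, muscle or epidermal cells, and a few act in the adult gonad or intestine. MEL-28 is the worm relative of ELYS, which joins chromatin to the nuclear envelope and helps to rebuild nuclear pores after mitosis. Each gene was given the strongest peak summit from 1000 bp upstream to 500 bp downstream of its annotated 5′ end. This was done in 4 deposited lists. A relaxed list came from either replicate, a further relaxed one from the reads of both together (the pooled list), and the last held the reproducible peaks. The signal of a peak is the authors' own value, and no source used here gives its scale. Signal is therefore compared only within a list, mostly as the percent of nuclear peaks of the same list with a lower signal, called the rank here.

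The 4 stretches that follow are shown because they lie at strong or informative pooled summits of the family and touch no untranslated region. Each holds 300 bases centred on the summit, in the direction of the ceh gene, from the RefSeq sequence of assembly WBcel235 (ce11). The ceh-43 stretch (chrIII:4450268-4450567, minus strand) has in capitals a tRNA gene, and the ceh-99 stretch (chrII:12518893-12519192, plus strand) has in capitals part of a snoRNA gene. The ceh-30 stretch (chrX:3062527-3062826, plus strand) has in capitals the letters TAATTA, the core that many homeodomains recognise. The ceh-18 stretch (chrX:3858037-3858336, minus strand) holds neither and has no capitals.
ceh-43: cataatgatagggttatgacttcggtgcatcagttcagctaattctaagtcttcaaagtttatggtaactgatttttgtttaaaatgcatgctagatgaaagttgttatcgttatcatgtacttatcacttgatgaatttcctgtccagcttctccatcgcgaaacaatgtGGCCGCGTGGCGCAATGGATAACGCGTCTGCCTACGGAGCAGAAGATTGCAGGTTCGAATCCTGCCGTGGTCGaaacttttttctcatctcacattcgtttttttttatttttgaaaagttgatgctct
ceh-18: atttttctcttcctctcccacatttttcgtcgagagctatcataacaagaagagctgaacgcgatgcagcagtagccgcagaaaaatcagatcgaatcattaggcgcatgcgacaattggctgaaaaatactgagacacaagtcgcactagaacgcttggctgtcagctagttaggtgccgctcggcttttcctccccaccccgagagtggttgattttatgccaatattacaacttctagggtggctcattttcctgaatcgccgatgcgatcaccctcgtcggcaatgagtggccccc
ceh-99: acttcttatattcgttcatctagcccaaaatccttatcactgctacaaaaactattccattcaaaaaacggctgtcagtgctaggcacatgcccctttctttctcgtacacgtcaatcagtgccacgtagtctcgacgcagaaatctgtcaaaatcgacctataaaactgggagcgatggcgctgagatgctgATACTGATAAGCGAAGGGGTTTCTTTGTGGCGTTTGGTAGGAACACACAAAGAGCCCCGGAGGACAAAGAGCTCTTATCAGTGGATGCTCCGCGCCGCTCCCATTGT
ceh-30: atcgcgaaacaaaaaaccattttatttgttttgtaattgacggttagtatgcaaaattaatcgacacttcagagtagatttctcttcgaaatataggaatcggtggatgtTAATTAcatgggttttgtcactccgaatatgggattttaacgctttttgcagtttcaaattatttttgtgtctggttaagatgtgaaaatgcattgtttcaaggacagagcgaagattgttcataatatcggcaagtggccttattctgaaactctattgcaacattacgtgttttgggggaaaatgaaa

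No ceh gene had a reproducible MEL-28 summit at its 5′ end. The count was 0 of 63, which allows a share of up to 4.76%, against 1.22% of all nuclear protein-coding genes (244 of 19973). At that background share a family of 63 is small, and a lower share than the genome was not detectable with it. In the pooled relaxed list 16 of the 63 had a summit (25.4%, exact 95% interval 15.3 to 37.9%), beside 28.2% of all genes. The ceh share thus lay within counting error of the genome share. In the list of replicate 1 the count was 20 (31.7%, 20.6 to 44.7%), beside 37.1% of all genes. In that of replicate 2 it was 22 (34.9%, 23.3 to 48%), beside 30.5%. The ceh share was below the genome share in replicate 1 and above it in replicate 2, each time within its interval. In all, 35 ceh genes had a summit in some list and 28 had none (44.4%, beside 49% of all genes). Intervals are Clopper-Pearson intervals and cover the counting of genes only.

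**Figure D1:**
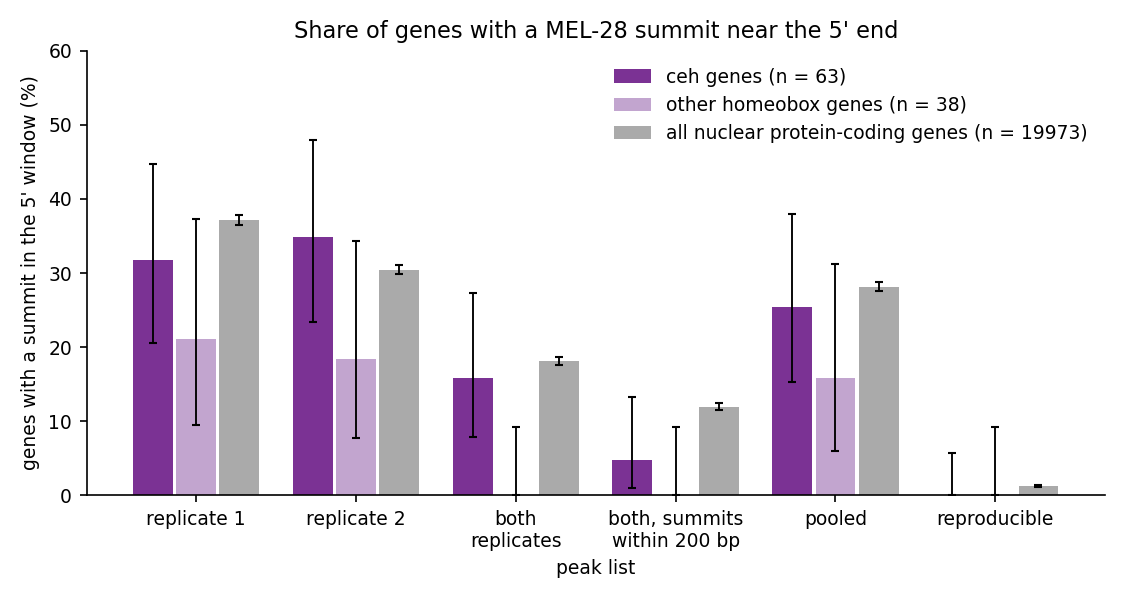
The bars give the percent of genes with a summit in the 5′ window in each peak list or pair of lists, for ceh genes, other homeobox genes and all nuclear protein-coding genes. Error bars are exact 95% intervals for the counting of genes. In the pooled list ceh genes stand at 25.4% and all genes at 28.2%, and in the reproducible list ceh genes stand at 0.

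None of the ceh peaks reached the signal of the reproducible list. This is not separate evidence from the count of 0, since both lists come from the same replicates. The pooled signal of the 16 genes ran from 29.5 to 60.7 with a median of 34.5 (exact 95% interval 30.4 to 51.5), beside a median of 40.6 over the 5627 genes with a pooled summit. The lowest nuclear peak of the reproducible list had a signal of 92.7, which is 1.53 times the highest ceh value. Over the whole genome 906 genes had a pooled signal above that highest ceh value. Of the 16 ceh genes 6 lay at or above the median signal of the pooled list (37.5%, exact 95% interval 15.2 to 64.6%), beside 60.2% of all genes with a summit. Both intervals include the value over all genes. The median rank of the ceh peaks was 34.8% in the pooled list, 41.9% in replicate 1 and 58.3% in replicate 2, beside 60.7, 59.9 and 57.7% over all genes with a summit there. The exact 95% intervals of the ceh medians (8.96 to 82.9%, 16.1 to 64% and 37.6 to 75.7%) include the values over all genes. The 16 pooled values fell in a lower block of 11 genes from 29.5 to 38.2 and an upper block of 5 from 49.6 to 60.7. The authors' q-value was at or under 0.05 for 0 of the 63 ceh genes (exact 95% interval 0 to 5.69%), beside 4.13% of all genes. That interval includes the share of all genes. The best ceh peak had a −log10 q of 1.17.

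**Figure D2:**
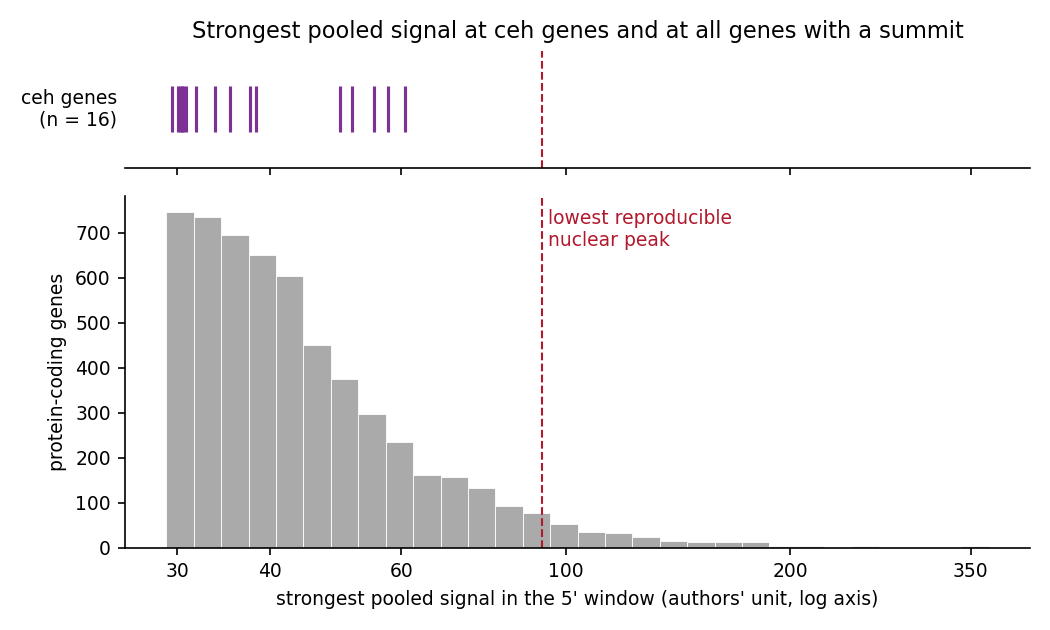
The upper strip marks the strongest pooled signal of each of the 16 ceh genes with a summit and the lower panel counts all 5627 genes with one, on a log axis in the authors' unit. The dashed line is the lowest nuclear signal of the reproducible list (92.7), and every ceh mark lies to its left, the highest at 60.7.

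Among the ANTP class genes of NK-like type, 6 of 18 had a pooled summit (33.3%, exact 95% interval 13.3 to 59%), beside 28.2% of all genes. In this and every other class the interval includes the share of all genes, so no class stood apart by its count. The highest was ceh-43, the Distal-less relative needed for anterior development and for dopaminergic neurons, with a pooled signal of 57.5 (rank 88.6%). Its values were 23.2 in replicate 1 (rank 78.8%) and 33.6 in replicate 2 (rank 83.0%), at summits 270 bp apart. Each replicate thus had a ceh-43 summit in the upper part of its list, though not at the same place. The next was ceh-2, related to empty spiracles and known from the pharynx, with a pooled signal of 49.6 (rank 80.2%). Replicate 1 gave ceh-2 a signal of 29.9 (rank 91.9%, the highest rank of a ceh gene in that list), and replicate 2 had no summit in the window. That replicate 1 summit lay at -543 bp and the pooled one at -810 bp. The BarH-type gene ceh-30, which protects male-specific sensory neurons from cell death, had a pooled signal of 38.2 and a summit in replicate 2 alone (23.6). For ceh-1 the pooled value was 35.3, again with a summit in replicate 2 alone (32.9). The gene ceh-5 had no pooled summit, yet had 18.5 in replicate 1 and 30.5 in replicate 2, at summits 418 bp apart. The pooled value of ceh-27 was 31.8, and neither replicate list had a summit in its window. The lowest of the class was ceh-22, the NK-2 factor of pharyngeal muscle, at 30.8, with 13.6 in replicate 1 (rank 1.72%) and 27.9 in replicate 2 (rank 66.4%). These replicate summits lay 589 bp apart, and the pooled ceh-22 peak overlapped a peak of replicate 1 alone.

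Both POU class genes had a pooled summit (exact 95% interval 15.8 to 100%, beside 28.2% of all genes). The gene ceh-18 acts in the somatic sheath of the gonad, where it restrains oocyte maturation, and had a pooled signal of 51.5 (rank 82.9%). Its replicate values were 19.4 (rank 60.9%) and 25.6 (rank 55.4%), both a little above the middle of their lists. The gene ceh-6, needed in the excretory cell and in neurons, had the lowest pooled value of the family at 29.5 (rank 1.88%), with 16 in replicate 1 and no summit in replicate 2.

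CUT class genes, most of them of the ONECUT type, had a pooled summit at 4 of the 6 found in the annotation (66.7%, exact 95% interval 22.3 to 95.7%), beside 28.2% of all genes. The highest was ceh-38 (peak on chromosome II, 6951279 to 6951708, ce11), with a pooled signal of 55.1 (rank 86.5%), 20.4 in replicate 1 (rank 66.4%) and 39.2 in replicate 2 (rank 90.8%). That replicate 2 value was the highest of any ceh gene in its list. The other 3 lay close to the bottom of the pooled list, with 30.5 at ceh-49, 30.4 at ceh-21 and 30.2 at ceh-48. For ceh-48, which is active throughout the nervous system, replicate 1 nevertheless gave 27.1 (rank 88.0%), with no summit in replicate 2. The genes ceh-41, ceh-21 and ceh-39 lie close together on the X chromosome, with T26C11.9 between ceh-21 and ceh-39. Only ceh-21 of the 3 had a pooled summit, while ceh-41 (14.6) and ceh-39 (18.5, the gene of an X-dose signal in sex determination) had one in replicate 1. The replicate 1 summit of ceh-41, at -905 bp, lay inside ceh-21.

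Of the 20 ceh genes outside the listed classes 4 had a pooled summit (exact 95% interval 5.73 to 43.7%, beside 28.2% of all genes). The family's highest pooled value was at ceh-92, with 60.7 (rank 90.4%), 25 in replicate 1 (rank 83.8%) and 25.5 in replicate 2 (rank 54.8%). Pooled values were 37.6 at ceh-99, 33.7 at ceh-79 and 30.1 at ceh-91. At ceh-99 the replicates gave 17 (rank 42.9%) and 33.7 (rank 83.2%), at summits 648 bp apart. The pooled ceh-99 peak overlapped a peak of replicate 2 alone. At ceh-79 replicate 2 alone gave 30.2, and at ceh-91 neither replicate had a summit. Over all classes, 19 ceh genes had a summit in a replicate list without one in the pooled list (30.2%, exact 95% interval 19.2 to 43%), beside 22.8% of all genes. The values of those in replicate 1 ran from 13.9 to 19.9 (11 genes), and those in replicate 2 from 19.2 to 31.4 (12 genes).

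The other classes had no pooled summit in their 5′ windows. These were the paired-like genes (0 of 8), the Six-type genes (0 of 3), the TALE genes (0 of 3), the LIM gene ceh-14, the Hox gene ceh-13 and ceh-12. At these sizes the counts of 0 do not differ from the 28.2% of all genes beyond counting error, since even 0 of 8 has an exact 95% interval up to 36.9%. Some had a summit in 1 replicate. Replicate 2 gave 24.3 at ceh-17, a Phox2 relative of neurons, 26.9 at ceh-54, 22.9 at ceh-12, 21.7 at ceh-34 and 31.4 at ceh-40. The TALE gene ceh-60, a PBX relative that acts in intestinal yolk protein expression, had 16.5 in replicate 1 and 24.2 in replicate 2, at summits 1052 bp apart. No list had a summit at the TALE gene ceh-20, at the Otx-type genes ceh-36 and ceh-37, at ceh-10, which specifies interneurons, or at the engrailed relative ceh-16, an NK-like gene of this grouping.

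Few ceh genes had a summit at the same place in both replicates. A summit in both replicate lists was found at 10 of the 63 (15.9%, exact 95% interval 7.88 to 27.3%), beside 18.1% of all genes. When the summits of the replicates also had to lie within 200 bp of each other, 3 of the 63 remained, at ceh-92, ceh-38 and ceh-18 (4.76%, 0.993 to 13.3%), beside 12% of all genes. Both intervals include the share of all genes. Between the strongest summits of the replicates the median distance was 381 bp at the 10 ceh genes (exact 95% interval 47 to 1017 bp, which includes the all-gene value) and 172 bp at the 3608 genes with both. The distance was 2 bp at ceh-92, 47 bp at ceh-38, 244 bp at ceh-18 and 270 bp at ceh-43. At ceh-18 a weaker summit of replicate 1 met the 200 bp limit with the summit of replicate 2. The 5 genes at or above the median signal of both replicate lists were ceh-92, ceh-43, ceh-38, ceh-18 and ceh-5 (7.94% of 63, beside 9.30% of all genes). The 200 bp limit was chosen after the data were seen.

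The pooled peaks were set against the replicate peaks in the same way. Of the 16 strongest pooled peaks of ceh genes 4 overlapped a peak of both replicate lists (25%, exact 95% interval 7.27 to 52.4%), beside 50.6% over all genes with a pooled summit, which the interval includes. These 4 were the peaks of ceh-92, ceh-43, ceh-38 and ceh-18, which were also the 4 highest by pooled signal. A further 4 overlapped replicate 1 alone (25%, beside 22.9%), 6 replicate 2 alone (37.5%, beside 21.3%) and 2, those of ceh-27 and ceh-91, neither (12.5%, beside 5.22%). Pooled signal combines both replicates, so this order is not separate evidence.

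**Figure D3:**
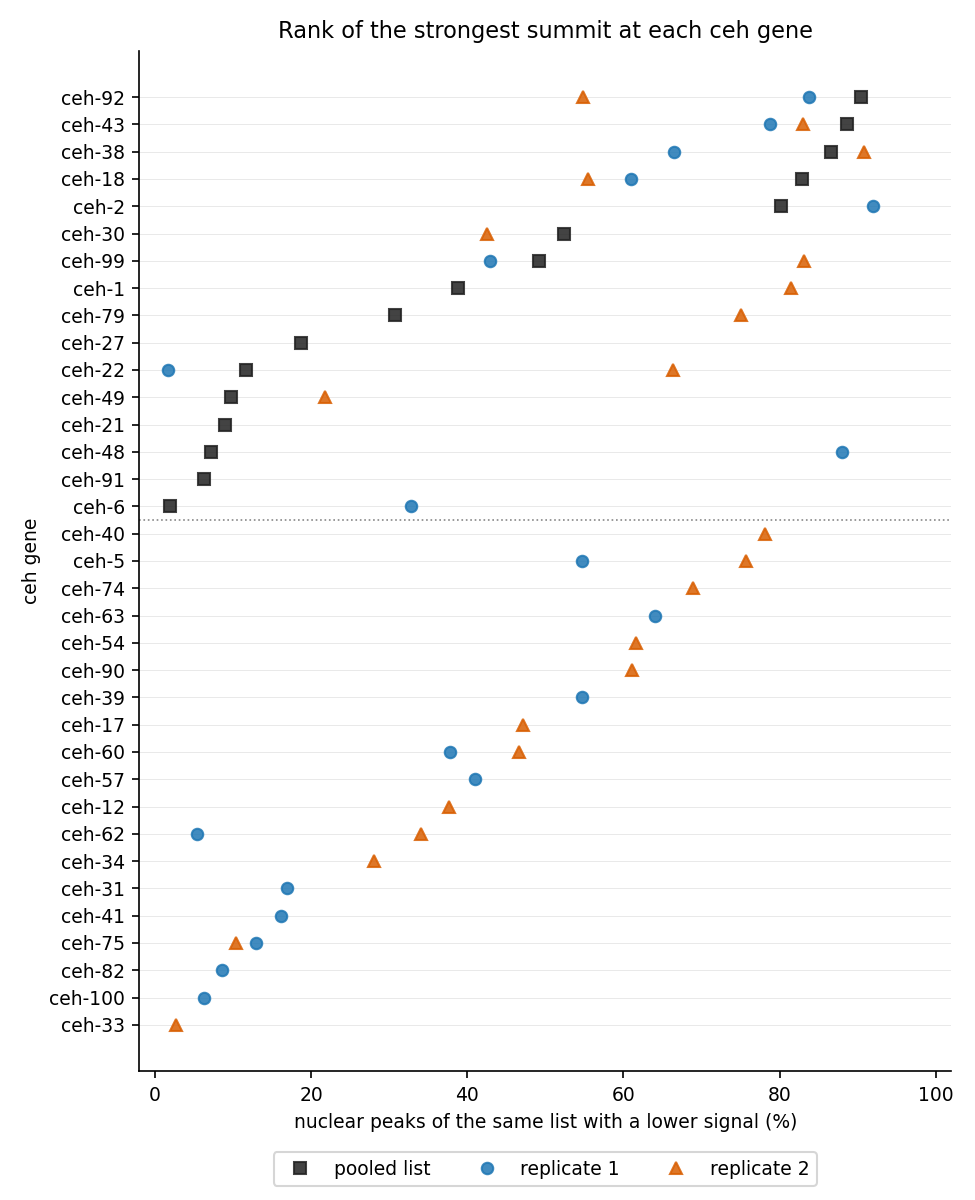
Each row is 1 of the 35 ceh genes with a summit in some list, and each symbol is the rank of its strongest summit, as the percent of nuclear peaks of the same list with a lower signal. The 16 genes above the dotted line have a pooled summit and the 19 below it do not. In the top 4 rows all 3 lists lie above the middle of the axis, and most other rows have 1 replicate missing.

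Of the pooled summits of ceh genes most lay upstream, as over all genes. The median position was -399.5 bp (exact 95% interval -886 to -32 bp), beside -198 bp over all genes with a pooled summit. Upstream summits were 13 of 16 (81.2%, exact 95% interval 54.4 to 96.0%), beside 70.6% of all genes, and 6 of 16 were more than 500 bp upstream (37.5%, 15.2 to 64.6%), beside 26.2%. Each of these 3 intervals includes the value over all genes. The median was -205 bp in replicate 1 and -351.5 bp in replicate 2, beside -207 and -206 bp over all genes. At the edge of the window, ceh-21 (-948 bp) and ceh-99 (-938 bp) lay just inside. The nearest pooled summit of ceh-63 (530 bp downstream) and that of ceh-88 (-1294 bp) lay just outside. When the window was narrowed to 500 bp before and 250 bp after the 5′ end, the pooled count fell to 8 and the ratio of the ceh share to that of all genes fell from 0.901 to 0.674.

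**Figure D4:**
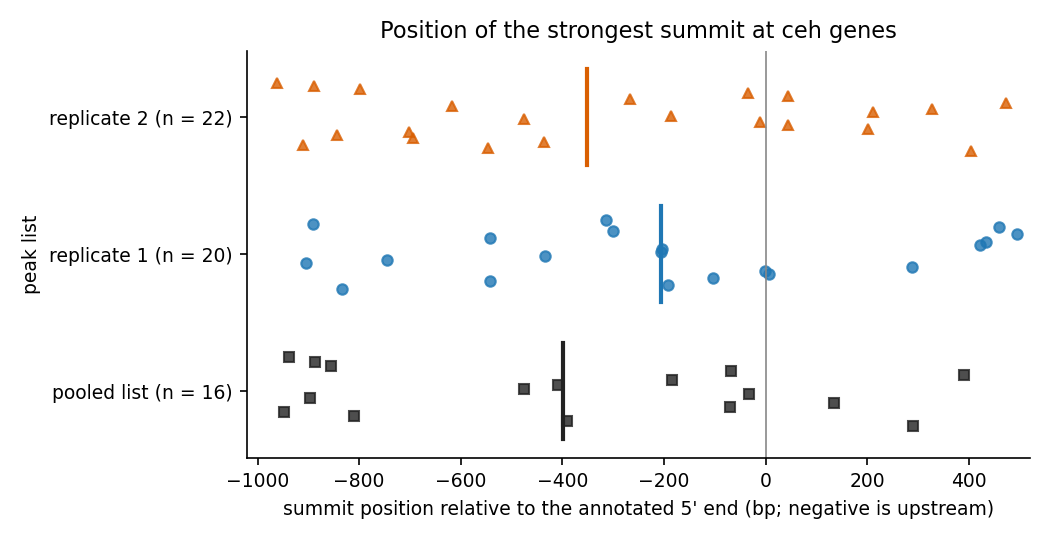
Points give the position of the strongest summit of each ceh gene relative to its annotated 5′ end in bp, in the pooled list (16 genes), replicate 1 (20) and replicate 2 (22), spread vertically for legibility. The bars are medians, at -399.5, -205 and -351.5 bp, and the points spread over the whole window with no cluster at 0.

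Some of these summits lay nearer to another gene. The ceh gene had the nearest protein-coding 5′ end at 13 of the 16 summits (81.2%), beside 82.4% over all genes. The exceptions were ceh-92, whose summit lay in an exon of Y66D12A.6 and 236 bp from the 5′ end of Y66D12A.7, ceh-99, 184 bp from srh-70, and ceh-21, in an exon of T26C11.9 and 165 bp from its 5′ end. Thus the strongest pooled peak of the family, that of ceh-92 (chromosome III, 11580499 to 11580928, ce11), lay inside another gene. The summits of ceh-1 and ceh-6 lay in their own exons, 290 and 391 bp downstream of the 5′ end, and that of ceh-27 in its own intron. The other 11 of the 16 lay outside protein-coding genes (68.8%, beside 54.3% of all genes). Upstream gaps to the next protein-coding gene were longer at ceh genes, with a median of 1805 bp beside 937 bp over all genes. Another protein-coding 5′ end lay in the window of 5 of the 63 ceh genes and of 4316 of all 19973. Among genes with no other 5′ end in the window, 14 of 58 ceh genes had a pooled summit (24.1%), beside 25.4% of 15657 genes.

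Noncoding genes lay close to several ceh summits. Within 500 bp of the summit a noncoding gene was annotated for 8 of 16 (50.0%, exact 95% interval 24.7 to 75.3%), beside 16.1% over all genes with a pooled summit. A tRNA, snoRNA or snRNA gene was annotated for 3 of 16 (18.8%, 4.05 to 45.6%), beside 3.66%. These were a tRNA gene 22 bp from the ceh-43 summit (WBGene00014267, chromosome III, 4450324 to 4450396), a tRNA gene 25 bp from the ceh-2 summit (WBGene00022946) and the snoRNA gene T21B4.20 43 bp from the ceh-99 summit (chromosome II, 12519086 to 12519217). The tRNA gene at ceh-43 and the snoRNA gene at ceh-99 are the capitals in the printed stretches. The summits of ceh-2 and ceh-27 lay inside the ncRNA genes C27A12.12 and F46F3.22, and the rest of the 8 were ncRNA genes near ceh-18, ceh-30 and ceh-22 and a piRNA gene near ceh-48. Neither interval for noncoding genes includes the share over all genes with a pooled summit. These shares are among many measures compared here, and the differences were not tested. Whether noncoding genes had a part in the ceh peaks was not tested. Of the pooled peaks with a signal from 49.6 to 60.7, those of ceh-43 and ceh-2 had a tRNA gene within 500 bp. Those of ceh-92, ceh-38 and ceh-18 had no tRNA, snoRNA or snRNA gene there, and ncRNA genes lay near that of ceh-18.

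Beyond the 5′ windows the bodies of some ceh genes held summits as strong as those at the 5′ ends. From 1000 bp upstream to the 3′ end, 26 of the 63 loci held a pooled summit (41.3%), beside 44.1% of all genes. The density was 0.142 pooled summits per kb of ceh locus and 0.186 per kb over all loci. A summit outside the window alone was found at 10 ceh loci (15.9%), beside 16.1% of all genes. The strongest was at ceh-60, with 4 summits in the locus and a highest signal of 64.4 (rank 92.1%), in an exon 7286 bp downstream of the 5′ end (chromosome X, 6522645 to 6523074). That value exceeded every value in the 5′ windows of the family, and the peak overlapped a peak of both replicate lists. The nearest protein-coding 5′ end to that summit was that of ets-4, 3977 bp away. At ceh-33, a Six-type gene, the highest value was 58.2 in an exon 1066 bp downstream, overlapping a peak of replicate 2 alone. An intron of the Hox gene ceh-13, the labial relative, held a peak of 44.6 at 1019 bp downstream (chromosome III, 7556464 to 7556893), and an intron of the goosecoid relative ceh-45 one of 44 at 2824 bp. Both overlapped peaks of both replicates, as did intronic peaks of ceh-63 (41.1), ceh-37 (39.9) and ceh-31 (36.5). Lower values stood at ceh-8 (32.8), ceh-88 (30.9) and ceh-14 (30.3), each overlapping a peak of 1 replicate. The ceh-88 summit lay in an exon of both ceh-88 and C49C3.6, 34 bp from the 5′ end of C49C3.6. For the 47 ceh genes without a pooled summit in the window, the nearest one lay at a median of 3758 bp from the 5′ end, beside 3657 bp over all such genes.

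The family is unevenly placed in the genome, with 18 of the 63 genes on the X chromosome, beside 2731 of 19973 genes. A pooled summit was found at 4 of these 18 (22.2%) and at 12 of the 45 autosomal ceh genes (26.7%), beside 26.1% and 28.5% over all genes. On chromosome III 3 of 8 had one, on V 4 of 12, and on II 2 of 13. The shares of all genes on these single chromosomes were not taken, so these counts set no chromosome apart. The chromosome II genes without one included ceh-81, ceh-82, ceh-83, ceh-84, ceh-86 and ceh-87, where the nearest pooled summit lay from 5715 bp (ceh-87) to 42518 bp (ceh-84) from the 5′ end. Of these genes, ceh-82 had a summit in the window in replicate 1 (14.1).

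The sequence at ceh summits was set beside that at other summits, and 16 summits are too few to show resemblance. GC content of the 300 bp around the summit had a median of 38.7% at the 16 ceh genes, from 29.7% at ceh-92 to 49.3% at ceh-18, beside a median of 37.3% over all genes with a pooled summit. Repeat-masked bases made up a median of 20.3%, beside 28.0%, and were highest at ceh-92 (59.0%) and ceh-91 (58.7%). The letters TAATTA, on both strands of the same 300 bp, were present at 2 of 16 (ceh-30 and ceh-6, 12.5%), beside 12.4% of all 17005 nuclear pooled summits. TGATTNAT, a form read by Hox and PBX factors, was present at 3 (ceh-92, ceh-21 and ceh-48, 18.8%), beside 7.17%. GAGAGA was present at 5 (31.2%), beside 22.5%, and CTGCGTC at 2 (12.5%), beside 5.15%. These matches describe letters in the window, and the exact intervals of all 4 ceh shares include the share over all summits.

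Homeobox genes with other names were set beside the ceh genes. Of 38 such genes (among them the Hox genes lin-39, mab-5 and egl-5) 6 had a pooled summit (15.8%, exact 95% interval 6.02 to 31.3%), beside 28.2% of all genes. A reproducible summit was found at 0 of the 38, which allows a share of up to 7.89%, beside 1.22% of all genes. The highest pooled values were irx-1 at 60.6, the POU gene unc-86 at 40.4 and the LIM gene lin-11 at 35.6. In both replicate lists 0 of the 38 had a summit (exact 95% interval 0 to 9.25%), beside 18.1% of all genes. For the ceh genes it was 10 of 63 (15.9%), near the share of all genes. The difference between the 38 and the ceh genes was not tested. The 38 genes had longer upstream gaps (median 9613 bp), and their loci held 0.193 pooled summits per kb.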

How the data were processed

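Per the deposited manifests, ce11 alignments of a replicate were compared with a control to give that replicate's list, the alignments of both replicates together gave the pooled list, and an irreproducible discovery rate threshold over these lists gave the reproducible peaks. No source used here names the aligner, the peak caller or that threshold. The files are in narrowPeak layout. Column 7 is the signal of a peak and column 9 its −log10 q-value, both as deposited by the authors, and a summit is the peak start plus column 10. Read counts were not analysed here, so depth is unknown. The labels call the samples biological replicates.

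Coordinates are ce11 and 1-based. Gene positions come from Ensembl release 115 (WBcel235) and bases from RefSeq of the same assembly, and no peak ended past a chromosome end (0 in the 4 lists). Mitochondrial peaks were left out, and the ce10 lists were not used. Shares carry exact Clopper-Pearson 95% intervals, and a count of 0 allows 3 of the total. With 1 group and peak lists only, no test between groups was made. The ceh genes, class lists, windows and alternatives were chosen with earlier results of these data known. Of the listed symbols ceh-44 had no match. Named genes were the 15 ceh genes with the highest pooled signal, those at or above the median signal of both replicate lists, the highest and lowest of each class and the 3 highest other homeobox genes. Others are named to describe a count and were chosen after their values were seen. The assignment of summits to genes was tested on simulated data with planted summits. Calculations used Python 3.11.15, numpy 2.4.6, pandas 2.3.3, scipy 1.17.1 and matplotlib 3.10.9.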

Additional observations from a re-analysis of the deposited data

How the results depend on the processing

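Of 50 alternative values for 6 results, 40 stayed near the reported one, meaning a count within 1.5 times of it or a median or ratio within its exact 95% interval. The count of 0 ceh genes with a reproducible summit stayed 0 under the alternatives that could have raised it. These were a window from 2000 bp upstream, overlap of the peak with the window, and all transcript 5′ ends. The window of 500 bp upstream to 250 bp downstream, the nearest 5′ end and the homeodomain core only remove summits or genes. Their counts of 0 were therefore fixed in advance, though they are among the 40. The pooled count of 16 became 8 with the window of 500 bp upstream to 250 bp downstream, 6 with the pooled peaks at or above the median signal of their list, 7 with the 31 ceh genes whose translated RefSeq coding sequence holds a W-F-any-N-R core, and 0 with q-values of 0.05 or less. The TALE and CUT genes have no such core, and other classes also hold genes without it. It was found in 12 of the 18 NK-like genes, 2 of the 3 Six-type genes and 4 of the 20 outside the listed classes. The count in both replicates (10) became 5 with the narrow window, 5 with the core, and 3 with summits within 200 bp. The last limit and the q-value limit were chosen after seeing the data. The median pooled signal (34.5) became 53.3 with these stronger peaks, by construction, and ran from 16.9 to 26.2 with the list of 1 replicate in place of the pooled list, whose scales differ. The ratio of the ceh share to the all-gene share ran from 0.561 (stronger peaks) to 1.15 (without replicate 1). No paired analysis was possible because there is 1 group. Depth is unknown, and 63 genes cannot resolve a small difference in shares.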
